A study of Homo sapiens with 4 samples.

Results

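The miR-200 family was described in 4 human lines of squamous cell carcinoma of the oesophagus. The lines were KYSE-450, KYSE-520, KYSE-890 and, as the last of the series, KYSE-960. The members of the family were taken by their miRBase mature-sequence accessions: miR-200b (MIMAT0000318), miR-200a (MIMAT0000682), miR-429 (MIMAT0001536), miR-200c (MIMAT0000617) and miR-141 (MIMAT0000432). These 5 were among the 856 features of the array. They were taken by family membership and not by a rule on measured level, but with earlier results of these data known. Each line is an established culture from a tumour of the squamous lining of the gullet and was grown in medium with 5% serum, a condition common to all 4. The labels name no treatment. Total RNA of each line (500 ng) was labelled with the dye Hy5 and hybridized to 1 one-colour microRNA array. No second array of a line and no normal tissue was part of the design, so differences between lines were not checked by replicates and carry no p-value. Each value is a mean over a culture, in which fewer cells with a microRNA and less of it per cell cannot be told apart.

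The miR-200 family is known for keeping epithelial cells epithelial. Its members repress the transcription factors ZEB1 and ZEB2, which in turn repress E-cadherin and the miR-200 genes themselves, so that the microRNAs and the ZEB factors hold each other in check. Loss of the family accompanies the epithelial-to-mesenchymal transition in many carcinoma lines. The members are cut from a pair of primary transcripts. A microRNA finds its targets mainly through its seed (bases 2 to 8), and the family has 2 seeds that differ at a single base, each found in both transcripts.

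The mature sequences follow, because the 4 members that rose above background are described here both by seed and by cluster. All 5 names matched an entry of RefSeq's table for GRCh38.p14. Names without an arm stand, in the older nomenclature of the array, for the arm now called 3p where both arms are listed. The seed is in capitals.
miR-200b: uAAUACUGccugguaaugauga
miR-200c: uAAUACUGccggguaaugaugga
miR-429: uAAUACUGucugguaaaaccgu
miR-200a: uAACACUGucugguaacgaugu
miR-141: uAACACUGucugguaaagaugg
In miR-200b, miR-200c and miR-429 the seed is AAUACUG, and in miR-200a and miR-141 it is AACACUG.

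By position the family divides differently. On GRCh38.p14, MIR200B (chr1:1167104-1167198), MIR200A (chr1:1167863-1167952) and MIR429 (chr1:1169005-1169087) lie within 1984 bases of chromosome 1, inside the annotated long non-coding host gene MIR200BHG. MIR200C (chr12:6963699-6963766) and MIR141 (chr12:6964097-6964191) lie within 493 bases of chromosome 12, inside the host gene MIR200CHG. Thus miR-200b and miR-200a come from 1 cluster but carry different seeds, as do miR-200c and miR-141.

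The arrays differed in brightness. Each array's background threshold was its median plus 3 SD, with the SD read from its dim side, and lay between 129 intensity units in KYSE-890 and 150.0 in KYSE-520. From 94 to 145 features exceeded it, and the sum of all intensities ranged from 180682 in KYSE-960 to 349156 in KYSE-520. Values are given as deposited and after quantile normalization, which sets all 4 arrays to 1 common distribution and shifted the 163 features that passed the threshold on any array by medians (log2) of -0.16 for KYSE-450 and -0.67 for KYSE-520, but 0.60 for KYSE-890 and 0.70 for KYSE-960. The identifiers of features other than the 5 members were not paired with microRNA names in the tables used here, so the lines were not checked against other squamous or non-epithelial microRNAs.

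Every line had signal from the family, but the members present differed. In KYSE-450 and in KYSE-520, miR-200b, miR-200c, miR-200a and miR-141 were above background, 4 of 5 members, against 13.7% and 16.9% of all features. In KYSE-890 the count was 2 of 5 (miR-200b and miR-200c) against 11.1% of all features. In KYSE-960 it was 3 of 5, with miR-200a just over the threshold, against 11% of all features. On all 4 arrays, 2 of 5 members and 8.76% of all features were above background.

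**Figure D1:**
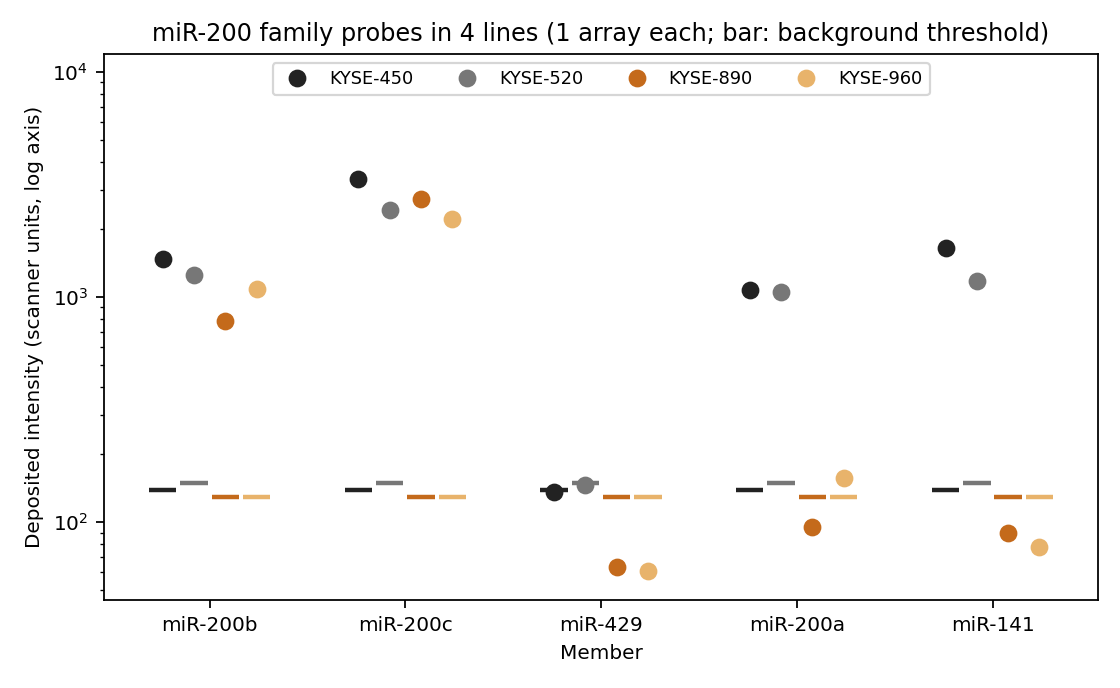
Deposited intensity (log axis) of the 5 members in the 4 lines, 1 point per array, with a short bar at that array's background threshold. Members are ordered by seed: miR-200b, miR-200c and miR-429 carry AAUACUG, and miR-200a and miR-141 carry AACACUG. The points of miR-200b and miR-200c lie far above the bars in all 4 lines, whereas those of miR-200a and miR-141 do so in KYSE-450 and KYSE-520 alone.

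The first of the members with the seed AAUACUG, miR-200b, opens the chromosome 1 cluster. Its deposited intensity was 1478 for KYSE-450 and 1249.5 for KYSE-520, against 782 for KYSE-890 and 1082.5 for KYSE-960. All 4 values were at least 6.06 times the threshold of their array, and the highest was 1.89-fold above the lowest, so that no pair of lines differed by 2-fold as deposited. After normalization the values were 991 for KYSE-450 and 730 for KYSE-520, against 2008 for KYSE-890 and 3133 for KYSE-960. The order of the lines then turned, with KYSE-960 and KYSE-890 highest and a span of 4.29-fold.

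The chromosome 12 member of the same seed, miR-200c, is the one whose forced expression is widely used to restore epithelial traits in carcinoma lines. It measured 3337.5 for KYSE-450 and 2429.5 for KYSE-520, against 2718.5 for KYSE-890 and 2218.5 for KYSE-960. The highest of these was 1.50-fold above the lowest, and each was at least 16.2 times the threshold of its array. Normalized values were 2261 for KYSE-450 and 1292 for KYSE-520, against 5624 for KYSE-890 and 6026 for KYSE-960. They spanned 4.66-fold, in the same turned order as for miR-200b.

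The third member with this seed, miR-429, is the last hairpin of the chromosome 1 cluster. It measured 136 for KYSE-450 and 147 for KYSE-520, against 63.5 for KYSE-890 and 60.5 for KYSE-960. None of these exceeded the background threshold. The values in KYSE-450 and KYSE-520 came to 0.98 times the threshold of each array, and those in KYSE-890 and KYSE-960 lay below the median of all features there (80.5 and 77.5). With the dim-side SD taken instead as the root mean square distance of the features below the median, a choice made after the values were seen, miR-429 was just above the threshold in KYSE-450 and KYSE-520, at 1.01 times. No fold between lines is given for it.

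Of the members with the seed AACACUG, miR-200a lies beside miR-200b on chromosome 1. It measured 1079.5 for KYSE-450 and 1058 for KYSE-520, against 95.5 for KYSE-890 and 158 for KYSE-960. KYSE-450 and KYSE-520 differed by 1.02-fold, KYSE-960 was 1.22 times its threshold, and KYSE-890 was not above background. KYSE-450 was at least 8.34-fold above KYSE-890 and 6.83-fold above KYSE-960 as deposited. The same differences were at least 4.07-fold and 2.81-fold after normalization, where the values were 770.5 for KYSE-450 and 565.5 for KYSE-520, against 96.5 for KYSE-890 and 274 for KYSE-960. KYSE-520 was at least 8.17-fold above KYSE-890 and 6.70-fold above KYSE-960 as deposited, and at least 2.99-fold and 2.06-fold after normalization. Where a line was not above background, the fold was computed against the dimmest feature above background on that array, or against the member's own value where that was higher.

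The other member with this seed, miR-141, lies beside miR-200c on chromosome 12. Its intensity was 1651 for KYSE-450 and 1174.5 for KYSE-520, against 89.5 for KYSE-890 and 78 for KYSE-960. Both of the last values were below background, and the one in KYSE-960 lay 0.5 units above that array's median. KYSE-450 was at least 12.7-fold above KYSE-890 and at least 12.6-fold above KYSE-960 as deposited, and at least 6.44-fold and at least 6.33-fold after normalization. KYSE-520 was at least 9.07-fold above KYSE-890 and at least 8.97-fold above KYSE-960 as deposited, and at least 3.35-fold and at least 3.29-fold after normalization. The normalized values were 1220 for KYSE-450 and 634 for KYSE-520, against 89.4 for KYSE-890 and 81.4 for KYSE-960. No order between KYSE-890 and KYSE-960 is read from these, since both were at background.

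Ranks within an array are the same under any scaling that keeps the order of its features. On that scale miR-200b had rank 29 of 856 for KYSE-450 and 39 for KYSE-520, but 16 for KYSE-890 and 10 for KYSE-960, counted from the brightest. For miR-200c the ranks were 14, 24, 7 and 6 in the same order of lines. Both thus stood nearer the top in the latter pair of lines, where fewer features were above background. By contrast miR-141 went from rank 25 in KYSE-450 and 46 in KYSE-520 to 299 in KYSE-890 and 412 in KYSE-960, near the middle of the array. The ranks of miR-200a were 37, 50, 232 and 73, and those of miR-429 were 118, 150, 731 and 709.

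**Figure D2:**
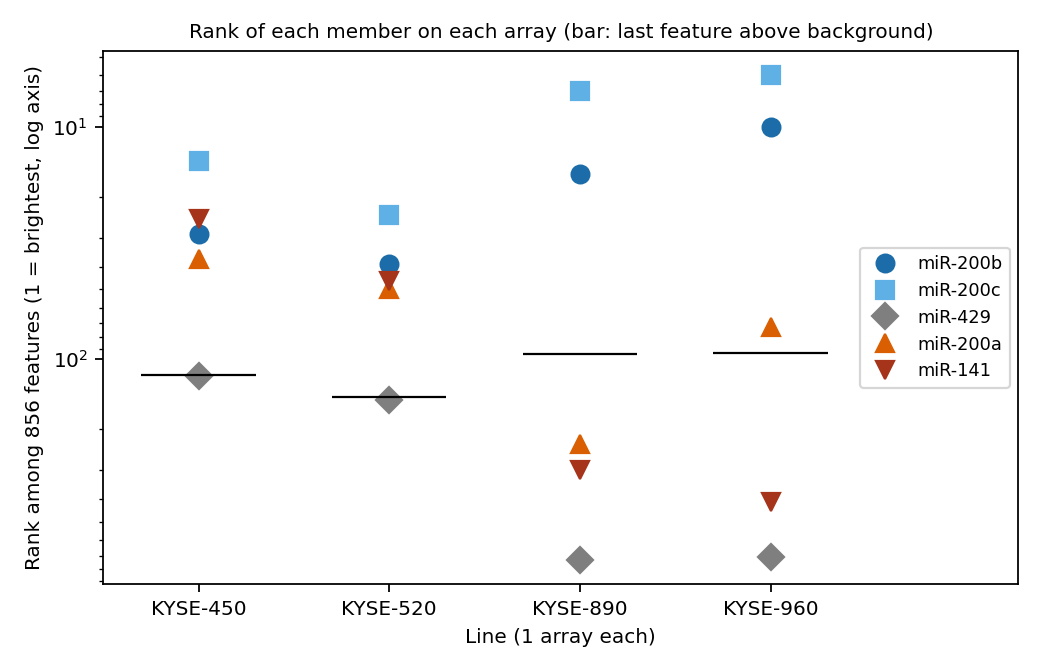
Rank of each member among the 856 features of each array (log axis, 1 is the brightest), with a bar at the number of features above background. From KYSE-450 and KYSE-520 to KYSE-890 and KYSE-960, miR-200b moves up to ranks 16 and 10 and miR-200c to 7 and 6. In the same lines miR-141 moves down to 299 and 412.

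The 6 pairs of lines were compared by counting members at least 2-fold apart after normalization, over 713 features that reached the array median on at least 1 array, with lower values raised to that median. All 5 members were among the 713. Between KYSE-450 and KYSE-520, 0 of 5 members differed by 2-fold in either direction, against 2.81% of features after normalization and 5.05% as deposited. All 4 members above background were somewhat higher in KYSE-450. Their differences were 0.44 log2 for miR-200b, 0.45 for miR-200a, 0.81 for miR-200c and 0.95 for miR-141 after normalization, and 0.24, 0.03, 0.46 and 0.49 as deposited. Over the 151 features above background in either line the median difference was -0.03 log2 after normalization and -0.54 as deposited. Of those 151 features, 28 differed more strongly towards KYSE-450 than miR-200b after normalization, 27 than miR-200a, 9 than miR-200c and 7 than miR-141. As deposited these were 17, 29, 15 and 11.

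Between KYSE-450 and KYSE-890 the 4 members above background divided. After normalization 2 of 5 members were at least 2-fold higher in KYSE-450 (miR-200a and miR-141), against 5.05% of features. Another 2 of 5 were at least 2-fold lower there (miR-200b and miR-200c), against 5.75% of features. Those shares were 36 and 41 of the 713 features, of which 130 were above background in either line. Differences of 2-fold made up a larger share of these 130, in each direction. Over them the median difference was 0 log2 after normalization and 0.95 towards KYSE-450 as deposited. The fifth member, miR-429, which has the seed of miR-200b and miR-200c, was not called and was above background in neither line. Its difference of KYSE-450 over KYSE-890 was 0.81 log2 after normalization and 0.76 as deposited, and ranged from -0.60 to 1.22 over 9 settings of scaling, floor and added constant. It passed 2-fold towards KYSE-450 without a floor (1.22) and with 16 added (1.04), as miR-200a and miR-141 did. The log2 differences of KYSE-450 over KYSE-890 were 2.997 for miR-200a and 3.77 for miR-141, and -1.02 for miR-200b and -1.31 for miR-200c. As deposited they were 3.50 and 4.21 for the first pair, and 0.92 and 0.30 for the second. In the deposited values, then, miR-200a and miR-141 remained at least 2-fold higher in KYSE-450, against 8.70% of features, while miR-200b and miR-200c were no longer lower (0 of 5 members, against 1.12% of features).

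The same 4 members were called in the same directions for KYSE-450 against KYSE-960, with 5.61% of features higher and 5.61% lower in KYSE-450. That was 40 of the 713 features each way, of which 126 were above background in either line. Differences of 2-fold made up a larger share of these 126, in each direction. Over them the median difference was 0.06 log2 after normalization and 1.01 towards KYSE-450 as deposited. The normalized differences of KYSE-450 over KYSE-960 were 1.49 log2 for miR-200a, 3.91 for miR-141, -1.66 for miR-200b and -1.41 for miR-200c. As deposited they were 2.77, 4.40, 0.45 and 0.59. Again miR-200a and miR-141 passed 2-fold under both scalings (8.84% of features were higher in KYSE-450 as deposited and 0.14% lower, the latter with 0 of 5 members), and the direction of miR-200b and miR-200c turned with the scaling.

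KYSE-520 gave the same division of these 4 members. After normalization miR-200a and miR-141 stood at least 2-fold above KYSE-890 in KYSE-520 (2 of 5, against 6.45% of features) and as far above KYSE-960 (2 of 5, against 6.03%). In each comparison miR-200b and miR-200c were at least 2-fold lower in KYSE-520 (2 of 5, against 5.47% of features for KYSE-890 and 6.17% for KYSE-960). Those shares were 46, 43, 39 and 44 of the 713 features, in the order given. In each pair 153 were above background in either line, and 2-fold differences made up a larger share of these. Their median difference towards KYSE-520 was 0.32 log2 for KYSE-890 and 0.33 for KYSE-960 after normalization. It was 1.15 and 1.27 as deposited. As deposited, the differences of KYSE-520 over KYSE-890 were 3.47 log2 for miR-200a and 3.71 for miR-141, beside 0.68 for miR-200b and -0.16 for miR-200c. Those of KYSE-520 over KYSE-960 were 2.74, 3.91, 0.21 and 0.13. As deposited, 2 of 5 members were at least 2-fold higher in KYSE-520 than KYSE-890 (against 12.5% of features) and than KYSE-960 (against 13.3%), and 0 of 5 were lower (against 0.842% and 0.281%). These comparisons share arrays and are not independent of each other.

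Between KYSE-890 and KYSE-960 only miR-200a differed by 2-fold after normalization, at 1.51 log2 higher in KYSE-960 (1 of 5 lower in KYSE-890, against 3.09% of features). That share was 22 of the 713 features, of which 111 were above background in either line. As the value of miR-200a in KYSE-890 was at background, its fold is given as at least 1.45, and as at least 1.22 in the deposited values. There 0 of 5 members passed 2-fold in this direction against 0.421% of features. The same member, miR-200a, was also the only 1 that stood at least 2-fold below all 3 other lines, in KYSE-890 after normalization, against 0.842% of features. As deposited 0 of 5 did, against 0.421%. Between these lines miR-200b was 1.56-fold higher in KYSE-960 after normalization and 1.38-fold as deposited. For miR-200c the direction turned, from 1.07-fold higher in KYSE-960 to 1.23-fold higher in KYSE-890.

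**Figure D3:**
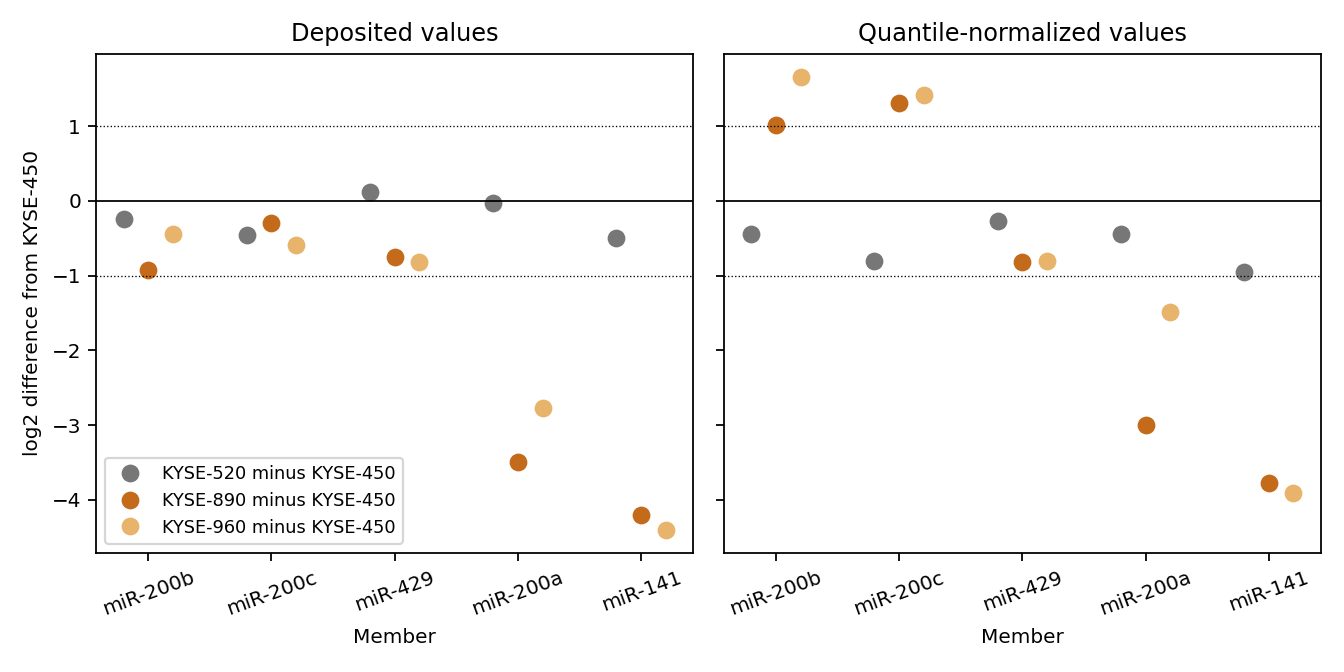
log2 difference of each member from KYSE-450 in the 3 other lines, for the deposited values (left) and after quantile normalization (right), values below the array median being raised to it. Dotted lines mark 2-fold. In KYSE-890 and KYSE-960, miR-200a and miR-141 lie below -1 in both panels, whereas miR-200b and miR-200c lie between 0 and -1 on the left and above 1 on the right.

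The differences of miR-200b and miR-200c, which were above background in all 4 lines, were also set beside those of other features. Of the 130 features above background in KYSE-450 or KYSE-890, 66 had a larger deposited difference towards KYSE-450 than miR-200b and 63 a smaller one. After normalization 94 had a larger and 35 a smaller one. For miR-200c the counts were 85 larger and 44 smaller as deposited, and 101 and 28 after normalization. Against KYSE-960, over 126 features, 83 had a larger difference than miR-200b and 42 a smaller one as deposited, and 114 and 11 did after normalization. For miR-200c these were 81 and 44 as deposited, and 103 and 22 after normalization. Both members thus lay further to one side of these features after normalization than as deposited. No such position is given for miR-200a or miR-141, since miR-141 entered these sets through KYSE-450 alone, as did miR-200a in the set with KYSE-890. With KYSE-520 in place of KYSE-450, both miR-200b and miR-200c lay to one side as deposited. Of 153 features with KYSE-890, 102 had a larger deposited difference towards KYSE-520 than miR-200b, and 128 than miR-200c. Of 153 with KYSE-960 these were 126 and 130. After normalization they were 125 and 141 with KYSE-890, and 142 and 144 with KYSE-960.

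**Figure D4:**
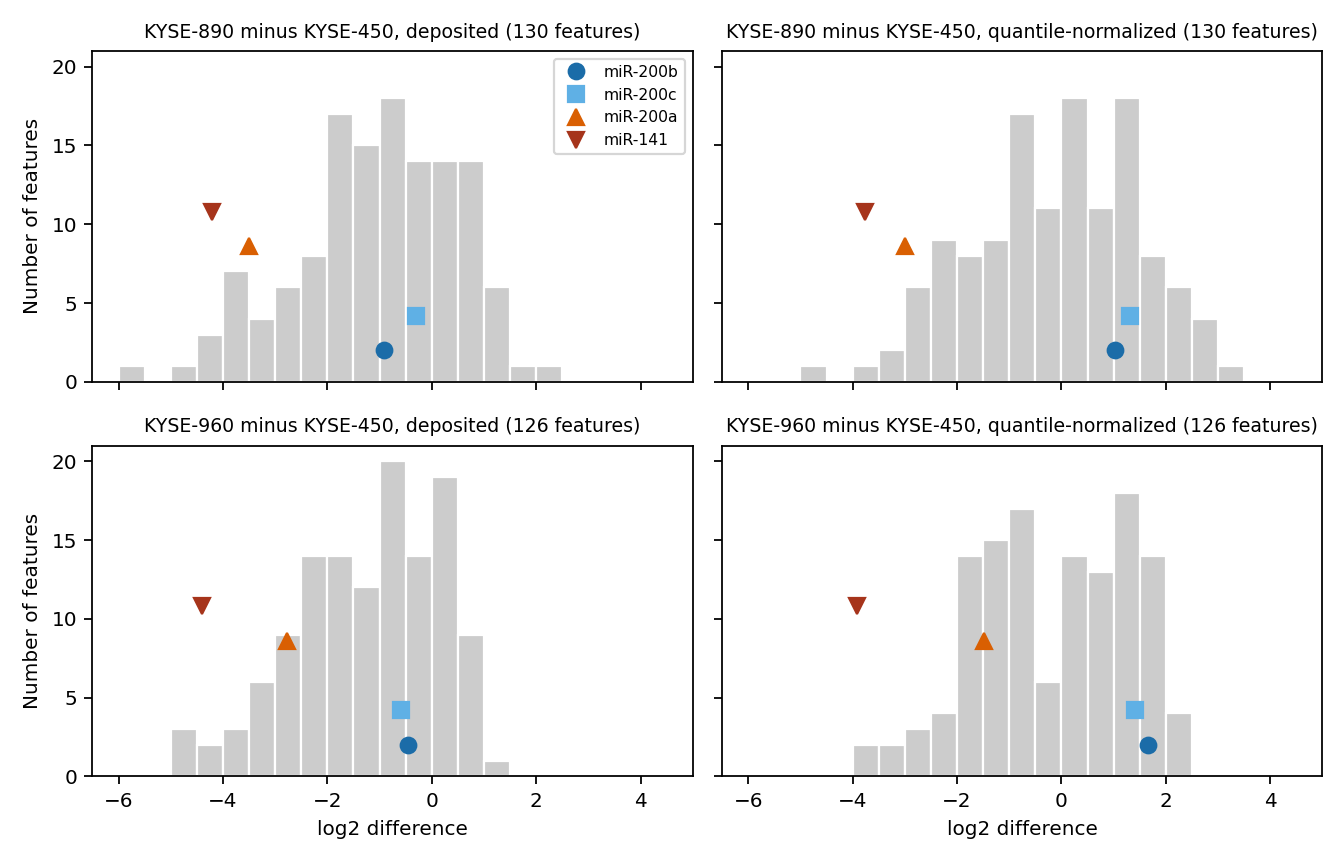
Histograms of the log2 difference from KYSE-450 in KYSE-890 (130 features) and KYSE-960 (126 features) over features above background in either line, as deposited (left) and normalized (right). Symbols mark the 4 members above background at their difference, and their height carries no value. From left to right, miR-200b and miR-200c move further towards the upper part of the features. On the left only miR-200b in KYSE-890 lies near the middle, and the other symbols of these 2 members already lie above it. The symbols of miR-141 in both lines, and of miR-200a in KYSE-890, rest on values at background.

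The division of the 4 members ran through both genomic clusters. Within an array, the ratio of 1 member to another does not depend on a factor common to the array, and a change in that ratio between lines shows unequal change. Where a member was at background its fall has only a bound, which is given here from the deposited values after those below the threshold of their array were raised to it. That is the smallest value over the same 9 settings. From KYSE-450 to KYSE-890, miR-200a fell relative to its cluster partner miR-200b by at least 2.15 log2. From KYSE-450 to KYSE-960, where both were above background, it fell by 3.15 log2 after normalization and 2.32 as deposited. On chromosome 12, miR-141 fell relative to miR-200c by at least 3.38 log2 from KYSE-450 to KYSE-890 and by at least 3.08 from KYSE-450 to KYSE-960. From KYSE-450 to KYSE-520 the same ratios changed by at most 0.21 log2 in any of the 9 settings.

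The ratio of miR-200b to miR-200c, which share a seed but not a cluster and were above background in all 4 lines, changed by between 0.08 and 0.84 log2 in size over the 6 pairs of lines and 9 settings. The ratio of miR-200a to miR-141 changed by between 0.46 and 0.50 log2 from KYSE-450 to KYSE-520, where both were above background. In KYSE-890 both were at background, and in KYSE-960 miR-141 was, so how closely they kept to each other there was not measured.

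Profiles over the 4 lines were compared by their root mean square distance, after each log2 profile had been centred on its own mean. After normalization miR-200b and miR-200c lay 0.25 log2 apart, and 4.73% of the 13203 pairs among the same 163 features lay closer. The median over all pairs was 0.85. The distance between miR-200a and miR-141 was 0.91. Both lay at background in KYSE-890, as did miR-141 in KYSE-960, so the distances of these members include values that were not measured above background. Among the 4 members, cluster partners lay further apart, at 1.82 for miR-200b and miR-200a and 2.57 for miR-200c and miR-141. As miR-141 passed the threshold through KYSE-450 and KYSE-520 alone, and miR-200a not through KYSE-890, such distances are in part set by that. No position among all pairs is therefore given for them. In the deposited values miR-200b and miR-200c lay 0.33 apart, against a median of 0.80 over all pairs. There the distance was 0.59 for miR-200a and miR-141, and 1.28 and 1.92 for the cluster partners. The dim miR-429 lay, after normalization, at 1.14 from miR-200b and 1.23 from miR-200c against 0.86 from its cluster partner miR-200a. As deposited it lay 0.26 from miR-200b, 0.38 from miR-200c and 1.17 from miR-200a. These are descriptions over 4 arrays, and the distances of miR-429 rest on values at background.

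Among the 4 members above background, the 2 pairs alike in seed were also the most alike in sequence as a whole. Aligned from the 5′ end over 22 bases, miR-200b and miR-200c differed at 2 bases, as did miR-200a and miR-141, none of them in the seed. The cluster partners miR-200b and miR-200a differed at 4 bases, 1 of them in the seed, and so did miR-200c and miR-141. From miR-429 the other members differed at 5 to 7 bases, with 6 and 7 for miR-200b and miR-200c, which share its seed. The array's probe sequences were not used here, and the part that binding of one member to the probe of another had in the likeness of miR-200b with miR-200c, or of miR-200a with miR-141, was not tested.

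**Figure D5:**
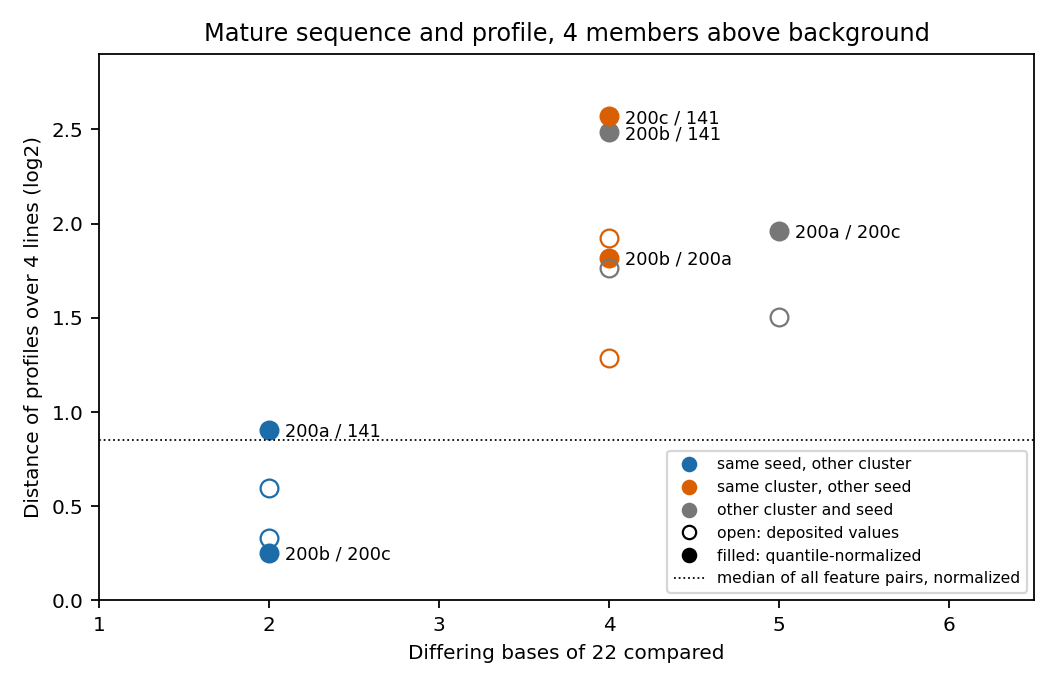
Distance between the centred profiles of 2 members over the 4 lines (log2) against the number of bases at which their mature sequences differ of 22 compared, for the 6 pairs among the 4 members above background. Filled points are normalized and open points deposited values, and the dotted line marks the median normalized distance over all feature pairs, 0.85. Both pairs with a common seed differ at 2 bases and lie at 0.91 or less, and the remaining 4 pairs differ at 4 or 5 bases and lie above 1.2. Each of those 4 pairs holds miR-200a or miR-141, which were not above background in every line.

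As the members moved in opposite directions after normalization, the mean profile of the 4 above background was a compromise, at 0.59 log2 above its own mean in KYSE-450 and -0.07 in KYSE-520, then -0.52 for KYSE-890 and 0.01 for KYSE-960. It matched no single member. Of the 159 other features that passed the threshold on any array, those nearest to it were MIMAT0000445, at a root mean square distance of 0.26 log2 over the 4 lines, and MIMAT0004493, also at 0.26. MIMAT0000445 measured 200.0 in KYSE-450, then 143, 101.5 and 87.5 in KYSE-520, KYSE-890 and KYSE-960. MIMAT0004493 measured 156.5, 178.5, 81.5 and 80.0 in the same order. Both were dim. MIMAT0000445 exceeded background in KYSE-450 alone, and MIMAT0004493 in KYSE-450 and KYSE-520 alone. The detection pattern of miR-141, above background in KYSE-450 and KYSE-520 alone, was found in 23 features, and that of miR-200a, which lacked KYSE-890 alone, in 7.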

How the data were processed

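Per the labels' protocols, Hy5-labelled total RNA (500 ng) was hybridized for 16 h at 32 °C, and arrays were read with a ProScanArray. The authors deposited 1 intensity per feature and array, on a linear scale, as multiples of 0.5. Not given in the sources used here are spot averaging, background subtraction and scaling. Background left in a value draws ratios of dim probes towards 1.

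Quantile normalization used limma 3.58.1 (R 4.3.3). Values under the array median were raised to it, the 143 features under it on every array were dropped, and log2 was taken. The dim-side SD was the median minus the 15.87th percentile. Alternatives were other scalings, floors, an added constant of 16, normexp with an offset of 50 and a 4-fold threshold. The call counting was tested on simulated arrays of equal brightness without normalization, so that test cannot bear on how the counts depend on scaling.

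The members and lists were chosen with earlier results of these data known. All 5 members are named. The rule also asked for opposite arms, lists of epithelial and mesenchymal microRNAs and cell type markers, which were not matched because 0 of 856 accessions were found in the name tables, and for the 3 features nearest in profile, of which 2 are printed without a name. With 1 array per line, the number of arrays limits the precision and none can be stated.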

Additional observations from a re-analysis of the deposited data

How the results depend on the processing

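Counts are of members at least 2-fold apart, out of 5. The causes of changes were not tested. No paired analysis was possible because there was 1 array for each line. In 152 of 184 alternative counts the number stayed within 1.5 times. The 152 hold every count that was 0 in the main setting, all of which stayed 0 and so say little about stability. The other 32 were all lower than the main count. With the deposited values, with either floor, 0 members were lower in KYSE-450 or KYSE-520 than in KYSE-890 or KYSE-960, 0 were lower in KYSE-890 than in KYSE-960, and 0 stood apart below the others in KYSE-890. Equal medians of shared features gave 0 for the same counts, except 1 lower in KYSE-520 than KYSE-890 (miR-200c). Equal 75th percentiles gave 1 below KYSE-890 and 1 below KYSE-960 in KYSE-450, 1 higher in KYSE-520 than KYSE-960 (miR-141), and 0 lower in KYSE-890 than in KYSE-960 or standing apart. The background threshold as floor after normalization gave 0 for the last 2 counts. Without a floor, and with 16 added, 3 members (miR-200a, miR-141 and miR-429) were higher in KYSE-450 than KYSE-890 and than KYSE-960. There miR-429 was not above background in any line. At 4-fold, 1 member, miR-141, was higher in KYSE-450 than KYSE-960, and likewise 1 when KYSE-520 was compared with it, 0 were lower in KYSE-450 than KYSE-890 or KYSE-960, 1 was lower in KYSE-520 than KYSE-890, and 0 were lower in KYSE-890 than in KYSE-960 or stood apart.

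Listed here are differences that turned direction and were at least 2-fold in the main or the alternative setting. Turns with both values under 2-fold, which occurred for miR-429, miR-200c and miR-141, are left out. Those listed were of miR-200b, at 0.92 (KYSE-450 minus KYSE-890), 0.45 (KYSE-450 minus KYSE-960), 0.68 (KYSE-520 minus KYSE-890) and 0.21 log2 (KYSE-520 minus KYSE-960), and of miR-200c, at 0.30 (KYSE-450 minus KYSE-890), 0.59 (KYSE-450 minus KYSE-960) and 0.13 (KYSE-520 minus KYSE-960), in the deposited values with either floor. With equal medians of shared features miR-200b turned to 0.46 and 0.042 (KYSE-450 minus KYSE-890 and KYSE-960) and miR-200c to 0.18 (KYSE-450 minus KYSE-960). With equal 75th percentiles, which multiply the background too, miR-429 turned to -1.08 (KYSE-520 minus KYSE-960). The differences of miR-141 between KYSE-450 or KYSE-520 and KYSE-890 or KYSE-960 kept their direction and passed 2-fold in all settings with that threshold, as did those of miR-200a except KYSE-520 minus KYSE-960, at 0.74 log2 with equal 75th percentiles.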
